A study of Mus musculus with 36 samples.

Results

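The small-RNA libraries compared here were the 3 KO-TRAMP and the 3 A537T-TRAMP libraries from mice aged 30 weeks, 6 of the 36 miRNA libraries of the series, and they were set directly against each other rather than each against its control. Both groups were male C56NL/6N mice (spelled as in the labels), and the RNA came from the ventral and lateral lobes of the prostate. Both carried 1 heterozygous copy of TRAMP, the SV40 large T and small t antigens under the probasin promoter, which is active in prostate epithelium and gives prostate tumours. KO-TRAMP mice had both floxed copies of Elac2 exon 8 removed by a Cre that is also driven by probasin, a promoter of prostate epithelium, so that other cell types of the tissue keep the gene by design. A537T-TRAMP mice carried the Ala537Thr substitution in both copies of Elac2 in every cell of the body, a CRISPR-Cas9 knock-in that corresponds to the human variant Ala541Thr and lowers the stability of the protein. WT-TRAMP mice of the same age, with TRAMP and unaltered Elac2, are given beside both lines. The KO and A537T libraries without TRAMP at 30 weeks, and with TRAMP at 10 weeks, served to ask whether the difference between the 2 lines was the same in another background or at another age. Because the deletion spares non-epithelial cells and the substitution does not, the lines differ both in the kind of lesion and in the cells that carry it.

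ELAC2 is the long form of RNase Z, the endonuclease that cuts the 3′ trailer from precursor tRNAs in the nucleus and in mitochondria. MicroRNAs are short RNAs cut from hairpin precursors by Drosha and Dicer. Each pairs with mRNAs mainly through its seed, bases 2 to 8 counted from its 5′ end, and lowers their translation and stability, so miRNAs with the same seed share most of their targets. In prostate the miR-200 family marks epithelium, miR-143 and miR-145 mark smooth muscle and other mesenchyme, and miR-375 is abundant in neuroendocrine cells.

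The mature sequences of the miRNAs on which the comparison turns are shown here, with the seed in capitals, from the RefSeq annotation of GRCm38.p6, in which 445 of the 516 miRNAs tested had a sequence under the name used in the tables. The first 9 had higher levels in every KO-TRAMP library than in any A537T-TRAMP library.
miR-351-5p: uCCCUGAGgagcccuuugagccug
miR-335-3p: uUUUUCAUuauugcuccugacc
miR-434-5p: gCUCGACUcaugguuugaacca
miR-128-3p: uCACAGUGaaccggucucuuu
miR-212-5p: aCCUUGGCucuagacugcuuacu
miR-296-3p: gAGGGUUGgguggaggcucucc
miR-298-5p: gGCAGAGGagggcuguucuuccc
miR-27a-5p: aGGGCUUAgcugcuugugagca
miR-27b-5p: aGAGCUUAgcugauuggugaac
The next 7 had lower levels in every KO-TRAMP library.
miR-221-3p: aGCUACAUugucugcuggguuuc
miR-222-3p: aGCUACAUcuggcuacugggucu
miR-30a-5p: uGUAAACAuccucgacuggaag
miR-676-3p: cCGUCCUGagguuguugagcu
miR-29c-3p: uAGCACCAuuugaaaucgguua
miR-199a-5p: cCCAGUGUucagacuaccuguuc
miR-214-3p: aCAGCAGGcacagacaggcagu
Of the last 4, the first 3 spread widely among the KO-TRAMP libraries themselves, and miR-148a-3p had the highest mean over the 6 libraries.
miR-499-5p: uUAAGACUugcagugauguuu
miR-344-3p: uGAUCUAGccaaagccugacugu
miR-10b-5p: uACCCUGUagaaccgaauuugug
miR-148a-3p: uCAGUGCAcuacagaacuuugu
Of these, miR-221-3p and miR-222-3p share the seed GCUACAU and come from neighbouring hairpins on chromosome X (GRCm38, 19146294 to 19146388 and 19146893 to 19146971, minus strand, in no annotated host gene). miR-27a-5p and miR-27b-5p come from paralogous hairpins but differ in the seed, GGGCUUA against GAGCUUA. The hairpins of miR-296 (chromosome 2, 174267047 to 174267125) and miR-298 (174267504 to 174267585) are neighbours on the minus strand. The hairpin of miR-434 lies on chromosome 12 (109594506 to 109594599, plus strand), opposite an exon of Rtl1, and that of miR-335 lies in an intron of Mest (chromosome 6, 30741299 to 30741396, plus strand). A hairpin of miR-199a (chromosome 1, 162217814 to 162217923) and that of miR-214 (162223368 to 162223477) both fall in exons of the non-coding gene Dnm3os. miR-199a has another hairpin on chromosome 9 (21496495 to 21496564), opposite an intron of Dnm2. miR-676 is intronic in Eda (chromosome X, 100381097 to 100381185), and miR-499 is intronic in Myh7b (chromosome 2, 155622880 to 155622958), a myosin heavy chain gene.

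The KO-TRAMP libraries, numbered 16, 17 and 18 in the tables, held 11261059, 12325180 and 15619692 miRNA reads, and the A537T-TRAMP libraries 13, 14 and 15 held 17558076, 9090165 and 12553417. The 6 libraries had between 899 and 1039 miRNAs with at least 1 read, and levels are given throughout as CPM, the reads of a miRNA scaled to the total miRNA reads of its library, a scale on which 1 read was worth 0.057 to 0.11 CPM. Elac2 itself cannot be checked in miRNA reads. Members of the miR-200 epithelial list were present in all 6 libraries, at summed levels of 81013, 58503 and 65744 CPM in KO-TRAMP libraries 16, 17 and 18 and 71487, 91258 and 71890.1 in A537T-TRAMP libraries 13, 14 and 15.

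The 3 KO-TRAMP libraries were not alike, and this bears on every result below. Over 302 miRNAs with a mean of at least 10 CPM in the 9 TRAMP libraries of 30 weeks, library 16 correlated with the A537T-TRAMP libraries at r = 0.979 to 0.989 (log2 scale, across miRNAs, which are not independent replicates), and with WT-TRAMP libraries 10, 11 and 12 at 0.958, 0.992 and 0.979, but with KO-TRAMP libraries 17 and 18 at 0.885 and 0.92. The library most like it was thus WT-TRAMP library 11. Libraries 17 and 18 correlated with each other at 0.993. Of the 308 miRNAs with such a mean over the 6 libraries of the comparison, 40 spanned more than 4-fold among the KO-TRAMP libraries, against 5 among A537T-TRAMP and 17 among WT-TRAMP. Library 16 was the lowest for 39 of those 40, and library 17 the highest for 38. Library 18 lay between the other KO-TRAMP libraries for 233 of 316 miRNAs (73.7%), and a mixture of 0.335 parts of library 16 and the rest of library 17 matched it with an SD of 0.172 on the log2 scale. A library in such a middle place was also found among the WT-TRAMP libraries, where library 12 lay between libraries 10 and 11 for 237 of 290 miRNAs (81.7%, SD 0.0815), and without TRAMP at 30 weeks, where 1 library lay between the others for 79.4% of miRNAs in WT, 67.2% in KO and 65.6% in A537T. In A537T-TRAMP at 30 weeks no library did so for more than 46.8% of 284 miRNAs. Whether libraries were exchanged or mixed was not tested, and if they were, the KO-TRAMP values given here would not stand for the line.

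No miRNA differed between KO-TRAMP and A537T-TRAMP at the threshold set. Of 516 miRNAs with a mean of at least 1 CPM, 0 (0%) passed an adjusted p of 0.05 in limma's moderated test on log2(CPM + 1), and the smallest adjusted p was 0.321. At an unadjusted p under 0.05 there were 46 miRNAs with higher levels in KO-TRAMP (8.91% of those tested) and 29 with higher levels in A537T-TRAMP (5.62%). All 3 libraries of one line lay above all 3 of the other for 50 miRNAs in favour of KO-TRAMP (9.69%) and for 45 in favour of A537T-TRAMP (8.72%), and 74 of these 95 did so under all 3 ways of scaling the libraries. The median difference over all miRNAs was 0.06, and the median standard error was 0.29 on the log2 scale. The edgeR quasi-likelihood test also called 0 miRNAs (107 at an unadjusted p under 0.05), and the DESeq2 Wald test called 41, of which 38 had higher levels in KO-TRAMP. Over those 41, whichever way they differed, library 16 lay above the A537T-TRAMP range for 7, within it for 18 and below it for 16. For a miRNA called higher in A537T-TRAMP, a place below the range goes with the call.

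The count of miRNAs called depended on 1 library. With library 16 left out, 157 miRNAs passed an adjusted p of 0.05 in limma, 112 of them higher in libraries 17 and 18 (21.7%) and 45 lower (8.72%). With any other single library left out, 0 passed, and 13 to 50 had an unadjusted p under 0.05. KO-TRAMP library 16 lay within the range of the A537T-TRAMP libraries for 286 of 516 miRNAs (55.4%), against 119 for library 17 (23.1%) and 162 for library 18 (31.4%). For 137 miRNAs libraries 17 and 18 both lay above every A537T-TRAMP library while library 16 did not, and for 86 they lay below while library 16 did not.

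**Figure D1:**
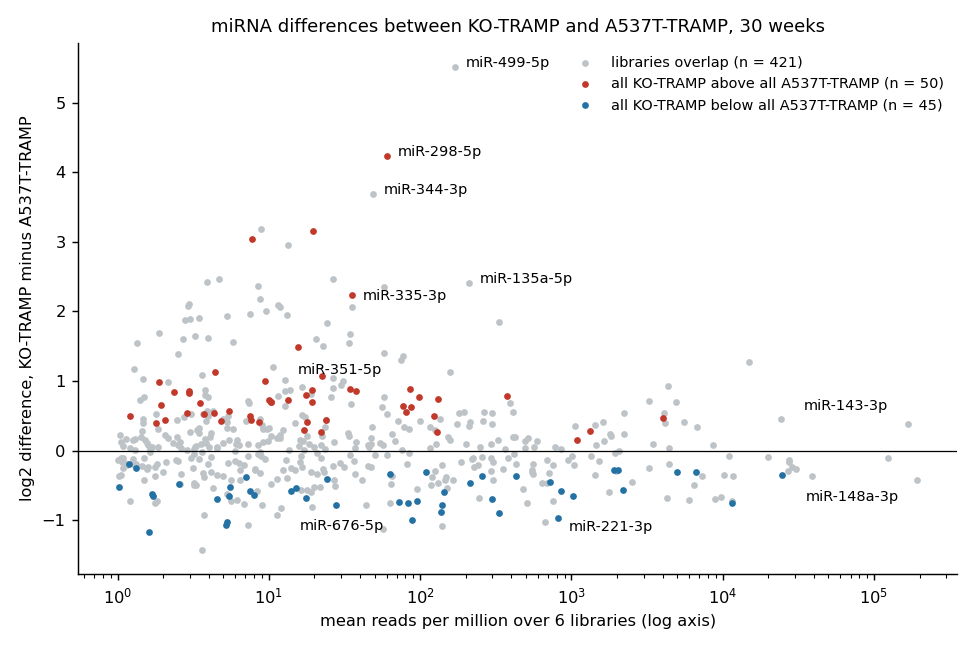
Mean level (CPM over the 6 libraries, log axis) against the log2 difference, KO-TRAMP minus A537T-TRAMP, for the 516 miRNAs tested; red and blue points are miRNAs whose 3 KO-TRAMP libraries all lay above or all below the 3 A537T-TRAMP libraries. The largest differences, such as miR-499-5p at 5.51, lie on the KO-TRAMP side, and several of them are grey because library 16 overlapped the A537T-TRAMP range.

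Among miRNAs with a mean of at least 10 CPM and no overlap, the 12 with the smallest p in each direction are given as values, since none passed the adjusted threshold (each had an adjusted p of 0.321). On the KO-TRAMP side the smallest p belonged to miR-351-5p, a member of the X-linked miR-322/miR-503 cluster that carries the miR-125 seed. It was at 21.1, 28.8 and 25.6 CPM in KO-TRAMP libraries 16, 17 and 18 and at 14.5, 12 and 13.3 in A537T-TRAMP libraries 13, 14 and 15, a log2 difference of 0.87 ± 0.22 (SE). All KO-TRAMP values lay above all A537T-TRAMP values, and the group means stood 1.9-fold apart. miR-128-3p, made from hairpins in introns of R3hdm1 and Arpp21 and best known from brain, was at 405, 544 and 473 against 277, 213 and 347, a log2 difference of 0.78 ± 0.23 (SE). miR-434-5p, from the imprinted Dlk1-Dio3 region, was at 134, 186 and 172 against 104, 109 and 79.6, a log2 difference of 0.74 ± 0.22 (SE). In these 3 miRNAs library 16 was the lowest KO-TRAMP library but still above every A537T-TRAMP library.

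miR-455-5p, which lies in an intron of the collagen gene Col27a1, differed in that library 16 took no outlying place. Its levels were 147, 135 and 149.9 in KO-TRAMP and 99.4, 108 and 98.3 in A537T-TRAMP, a log2 difference of 0.49 ± 0.16 (SE), and library 16 lay between libraries 17 and 18. miR-191-3p was at 10.5, 14.7 and 13.8 against 6.89, 8.25 and 7.57, with a log2 difference of 0.70. Its more abundant partner miR-191-5p was at 3749.7, 5605 and 4709 against 3389, 3294 and 3299.6, a difference of 0.48, also without overlap, so both strands of that hairpin were ordered alike.

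For the remaining miRNAs on the KO-TRAMP side, library 16 lay closer to A537T-TRAMP than libraries 17 and 18 did. miR-298-5p was at 2.84, 193.9 and 161 in KO-TRAMP and 1.77, 1.98 and 1.19 in A537T-TRAMP, a log2 difference of 4.24 ± 1.46 (SE). Its neighbour miR-296-3p was at 2.4, 64.3 and 46.4 against 1.59, 1.54 and 1.27, with a difference of 3.15 ± 1.07 (SE). In both, library 16 stood barely above the A537T-TRAMP libraries while libraries 17 and 18 stood far above them. miR-335-3p was at 17.3, 93.6 and 71.5 against 10.9, 11.1 and 7.33, a log2 difference of 2.24 ± 0.62 (SE), whereas the other arm, miR-335-5p, overlapped between the groups, since library 16 was lower (5.42) than every A537T-TRAMP library (11.1, 9.35 and 7.41). miR-212-5p, from the CREB-induced miR-212/miR-132 pair, was at 8.79, 37 and 26.8 against 7.46, 7.04 and 5.82, and its other arm miR-212-3p was at 5.33, 6.09 and 6.02 against 4.1, 5.83 and 2.55, with overlap. miR-700-5p was at 15.8, 38.6 and 40.7 against 13.6, 13.6 and 12.9. The passenger strands miR-27a-5p (30.5, 54.8 and 48.7 against 16.6, 27 and 27.4) and miR-27b-5p (31.1, 62.2 and 55.9 against 24.7, 30.4 and 23.4) completed this set, with library 16 just above the highest A537T-TRAMP library in each. The guide strand miR-27a-3p, at 4445, 4047 and 4999 against 4170.3, 4444 and 4485, had a difference, of changing sign between scalings, of 0.038 ± 0.16, and miR-27b-3p one of 0.45 ± 0.27.

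**Figure D2:**
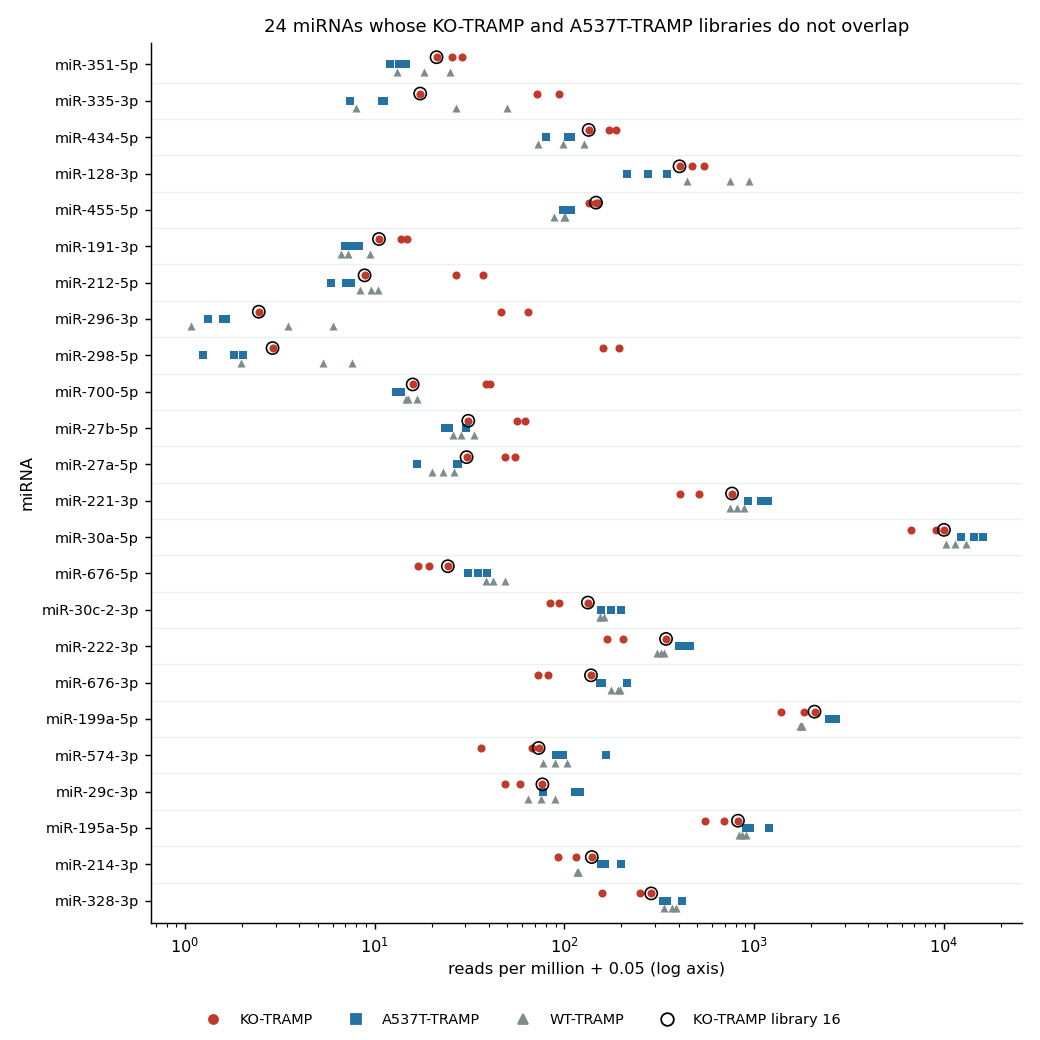
Levels of the 24 miRNAs (CPM + 0.05, log axis) in each KO-TRAMP (red circle), A537T-TRAMP (blue square) and WT-TRAMP (grey triangle) library, with KO-TRAMP library 16 ringed. For 11 of the first 12 miRNAs the ringed library is the KO-TRAMP value nearest to A537T-TRAMP, and for the last 12 it is so in every case.

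On the A537T-TRAMP side the smallest p belonged to miR-221-3p, which with miR-222-3p represses the cell-cycle inhibitor p27. It was at 765, 409 and 511 CPM in KO-TRAMP and 1181, 1090.4 and 929 in A537T-TRAMP, a log2 difference of -0.97 ± 0.26 (SE). miR-222-3p, with the same seed and from the neighbouring hairpin, was at 343, 167 and 204 against 458, 401 and 415, a log2 difference of -0.90 ± 0.28 (SE). Library 16 was the highest of the KO-TRAMP libraries in both and still below the lowest A537T-TRAMP library under scaling to total reads. The other arms were at lower levels, miR-222-5p without overlap (6.13, 2.6 and 3.71 against 6.61, 6.93 and 6.69) and miR-221-5p with library 16 (77.8) above every A537T-TRAMP library. Under TMM or median-ratio scaling only 1 of the 4 arms kept the groups apart, although all 4 differences remained negative.

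miR-30a-5p was the most abundant of this set, at 10036, 6686 and 9099 against 16094, 14492 and 12357, a log2 difference of -0.75 ± 0.22 (SE). Its other arm miR-30a-3p (709, 524 and 591 against 839.8, 747 and 893) and miR-30c-2-3p (133, 84.2 and 93.1 against 175, 199 and 155), from hairpins in the same part of chromosome 1, were ordered the same way without overlap, although miR-30a-3p overlapped with TMM and the median ratio. Both arms of miR-676, from another X-linked hairpin, were lower in KO-TRAMP as well. miR-676-3p was at 138, 72.3 and 82.4 against 158, 215.1 and 154, a log2 difference of -0.88 ± 0.29 (SE), and miR-676-5p at 24.2, 17 and 19.2 against 31.2, 39.2 and 34.8, with a difference of -0.78 ± 0.23. The groups stayed apart for both arms under all 3 scalings.

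A mesenchymal pair followed, both with a hairpin in Dnm3os, although miR-199a has another hairpin outside it. miR-199a-5p was at 2084, 1384 and 1842 against 2493, 2706 and 2577, a log2 difference of -0.57 ± 0.20 (SE), and miR-214-3p at 139, 92.3 and 115 against 155, 198 and 164, with a difference of -0.59 ± 0.22. In bulk tissue fewer cells of a type and less of an miRNA per cell cannot be told apart. miR-29c-3p, whose family represses collagen mRNAs, was at 76.5, 48.8 and 58.4 against 114, 121 and 76.7, where library 16 and A537T-TRAMP library 15 nearly met. miR-195a-5p, which carries the miR-15/miR-16 seed and represses cyclins, was at 823, 550.3 and 695 against 953, 1197 and 912. The last of the set were miR-574-3p (73.1, 36.5 and 67.4 against 98.4, 165 and 90.8) and miR-328-3p (287, 157 and 249.7 against 347, 416 and 333). The differences of these 4 ran from -0.998 to -0.57 on the log2 scale.

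A few miRNAs that the rule above did not take had comparable values and were chosen after their values were seen. The smallest p of all belonged to miR-877-5p, too low in level for the rule, at 5.15, 7.14 and 7.11 CPM in KO-TRAMP and 2.39, 2.42 and 2.31 in A537T-TRAMP, a log2 difference of 1.13 ± 0.23 (SE). The 3 libraries of each line lay close together for this miRNA, and WT-TRAMP libraries 10, 11 and 12 (1.85, 1.91 and 1.9) lay below both lines. Both arms of miR-501 and miR-188-5p, all from 1 X-linked cluster (Mir500 to Mir532), were also higher in every KO-TRAMP library, in a cluster where 7 arms were tested and 3 showed no overlap under total scaling (miR-188-5p overlapped with the other scalings).

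Of the 6 miRNAs that the study singled out by name in its text, none passed the threshold in this comparison. miR-669c-5p and miR-676-5p were singled out in KO-TRAMP against WT-TRAMP, so their direction here is not independent evidence, and the other 4 were singled out in the lines without TRAMP. miR-676-5p is given above. miR-10a-5p, from the Hoxb cluster, was at 9606, 7555 and 8226 in KO-TRAMP and 17741, 9482 and 16122 in A537T-TRAMP, a log2 difference of -0.73 ± 0.27 (SE), and overlapped only because A537T-TRAMP library 14 lay just below KO-TRAMP library 16. miR-669c-5p, from the Sfmbt2 intron, was at 6.22, 6.33 and 5.44 against 11, 11.7 and 7.41, without overlap (-0.64 ± 0.26). miR-338-3p, from an intron of Aatk, was at 4.44, 13.1 and 8.9 against 17, 17.3 and 11.8, a difference of -0.83 ± 0.39, with library 17 inside the A537T-TRAMP range under total scaling and below it with TMM and the median ratio. The liver miRNA miR-122-5p was at 1.69, 8.6 and 5.95 against 1.25, 3.08 and 1.04 and miR-383-5p at 0.0888, 6.82 and 3.71 against 1.03, 1.21 and 0.159, both at low levels and both overlapping. The study also described a difference between the mutant TRAMP lines, each set against WT-TRAMP. It reported that miRNAs targeting semaphorin mRNAs and Nox4 were increased in KO-TRAMP and reduced in A537T-TRAMP. Its text does not name those miRNAs, and they were not examined as a set here.

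The 10 most abundant miRNAs held between 66.5% and 71.9% of the reads in each of the 6 libraries, and none of the 10 differed at an unadjusted p under 0.05. miR-148a-3p was at 260669, 103939 and 152485 CPM in KO-TRAMP and 199656, 194400.0 and 252369 in A537T-TRAMP, with a difference of -0.42 ± 0.36. miR-143-3p, the smooth muscle and mesenchymal miRNA, was at 53618, 330631 and 233706 against 179312, 81034 and 128863. Library 16 was thus the lowest and libraries 17 and 18 the highest of the 6 for this miRNA. miR-21a-5p had the reverse order within KO-TRAMP, at 182814, 70280.4 and 115988 against 113967, 146038 and 112818. The remaining 7 (let-7c-5p, let-7f-5p, let-7g-5p, miR-26a-5p, miR-99a-5p, miR-200a-3p and miR-200b-3p) had differences from -0.36 to -0.13, all of them lower in KO-TRAMP on average, and let-7g-5p alone showed no overlap under total scaling, and overlapped with TMM and the median ratio, at 25194, 21399 and 18853 against 26490.0, 29344 and 26950.4.

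The widest spread within KO-TRAMP is described next, by the range of the 3 libraries among miRNAs with a mean of at least 10 CPM. These miRNAs were chosen for their spread after the values were seen, so no test is attached. miR-499-5p, the intronic miRNA of Myh7b, ranged most, at 0.799, 621 and 399.7 CPM in libraries 16, 17 and 18, against 1.03, 0.66 and 0.398 in A537T-TRAMP and 3.58, 0.547 and 1.72 in WT-TRAMP libraries 10, 11 and 12. It was thus within the A537T-TRAMP range in library 16 and far above it in the other KO-TRAMP libraries. miR-208b-3p, its counterpart in the slow-muscle myosin gene Myh7, had 0 reads in all 3 KO-TRAMP libraries, which allows up to 3 reads in each.

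miR-344-3p was at 0.977, 158 and 129 in KO-TRAMP against 1.71, 2.75 and 0.876 in A537T-TRAMP, miR-129-5p at 1.24, 167 and 131 against 15, 27.4 and 4.86, and miR-325-5p at 0.0888, 45.5 and 33.3 against 0.854, 0.44 and 0.398. miR-344 and miR-129 are known mainly from brain. miR-135a-5p was at 15.3, 672 and 472 against 58, 16.4 and 33.1, and miR-598-3p at 5.24, 177 and 137 against 13, 8.14 and 8.13. miR-449a-5p, a miR-34 relative of multiciliated cells, was at 1.95, 106 and 69.3 against 10.9, 9.13 and 6.37. For all 6 of these miRNAs, libraries 17 and 18 lay above every A537T-TRAMP library, while library 16 lay inside the A537T-TRAMP range for miR-344-3p and below it for the other 5. Among abundant miRNAs the same order held for miR-10b-5p, from the Hoxd cluster, at 1803, 41894 and 28319 against 9162, 2551 and 6405, and for miR-375-3p at 622, 10627 and 8443 against 2855, 1452 and 1948. WT-TRAMP was also divided for several of them, with miR-344-3p at 30.1, 0.889 and 13.3 and miR-135a-5p at 213, 10.3 and 99.6 in libraries 10, 11 and 12.

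The reverse order, highest in library 16, was milder. miR-204-5p, from the Trpm3 locus, was at 933, 165 and 408 in KO-TRAMP libraries 16, 17 and 18 against 587, 1042 and 867 in A537T-TRAMP. miR-146a-5p, induced by NF-kB, was at 5558, 1791 and 2849 against 4721, 7242 and 3399, the myeloid miR-223-3p at 67.7, 19.9 and 35.9 against 29.3, 46 and 27.5, and the lymphocyte miR-150-5p at 181.9, 58.8 and 100.5 against 107, 219 and 120.1. For miR-223-3p library 16 was the highest of the 6 libraries, while for the other 3 it lay inside the A537T-TRAMP range. Library 18 took the middle value in all 4.

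**Figure D3:**
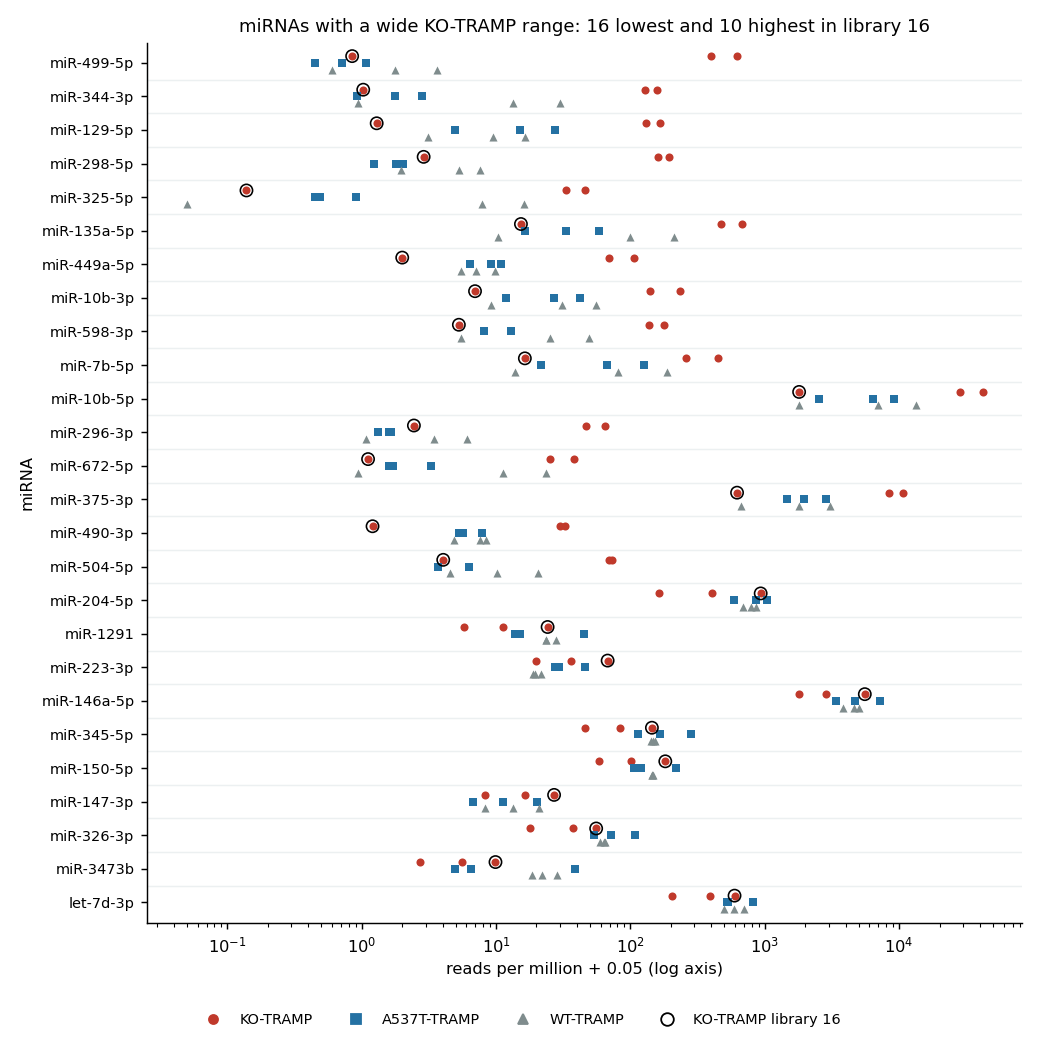
Levels (CPM + 0.05, log axis) of 26 miRNAs, the 16 with the widest range among the KO-TRAMP libraries of those lowest in library 16 and the 10 with the widest range of those highest in it, in each KO-TRAMP, A537T-TRAMP and WT-TRAMP library, with KO-TRAMP library 16 ringed. The range is wider in the upper 16, as in miR-499-5p, than in the lower 10, as in miR-223-3p.

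Families and clusters were read as counts, beside the 9.69% and 8.72% of all tested miRNAs that showed no overlap. With TMM 56 of all 516 lay wholly above and 48 wholly below, and with the median ratio 53 and 55. The X-linked miR-322/miR-503/miR-450/miR-542 cluster had 9 members tested, of which 5 lay wholly above and 1 wholly below A537T-TRAMP, with a median difference of 0.41. Besides miR-351-5p these were miR-450a-5p (15.5, 25.3 and 21.1 against 15.3, 15.2 and 14.4), miR-503-5p (7.28, 4.3 and 4.48 against 3.7, 3.19 and 2.95), miR-503-3p and miR-542-3p. The member below was miR-450b-3p, at 1.42, 0.892 and 1.09 against 1.54, 1.43 and 1.59. The miR-183/miR-96/miR-182 cluster, known from sensory cells and often raised in tumours, had 3 of 6 members wholly above, with a median of 0.45. Its miR-96-5p was at 1479, 1404 and 1528 against 1169.7, 1267 and 1171 and its miR-182-3p at 9.24, 17.5 and 12.2 against 4.44, 5.83 and 7.25. Of 10 members of the miR-23/miR-27/miR-24 clusters, 3 lay wholly above, all of them 5p strands, with a median of 0.43. With TMM and the median ratio the first cluster had 4 above and 0 below, since miR-450a-5p and miR-450b-3p overlapped, the second 5 and 4 above, and the third 3 above and 1 below (miR-23a-3p).

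Lower levels in KO-TRAMP ran through several families. All 20 let-7 arms tested had negative differences, with a median of -0.38 and a range from -0.75 to -0.081, under total, TMM and median-ratio scaling alike, yet only 2 (let-7g-5p and let-7i-3p, the latter alone with the other scalings) showed no overlap and 0 had an unadjusted p under 0.05. The let-7 family, which represses Lin28 and Ras mRNAs, summed to 139835, 107942 and 99288 CPM in KO-TRAMP and 126132, 158717 and 131667 in A537T-TRAMP, with library 16 inside the A537T-TRAMP range. The 7 miR-29 arms and the 7 tested arms of miR-26/miR-101 were likewise all negative, with medians of -0.34 and -0.36 and 1 arm without overlap in each. For miR-29 this was 2 arms with TMM and the median ratio, and for miR-26/miR-101 it was 2 with the median ratio. Of the miR-30 family 3 of 11 lay wholly below (2 with the other scalings), with a median of -0.10. Of 12 members of the Sfmbt2 intron cluster that were tested, among 70 listed, 6 lay wholly below A537T-TRAMP and 11 had negative differences, with a median of -0.52. These are low, near-identical miRNAs whose reads may be divided among copies, with the cluster summing to 46.6, 33.8 and 37.5 against 73.8, 58.3 and 56.5 CPM. The miR-15/miR-16 family had 3 of 10 wholly below (miR-15a-5p, miR-15b-5p and miR-195a-5p) and the miR-99/miR-100/miR-125 family 3 of 10, all of them miR-125 arms, with medians of -0.24 and -0.28. With TMM the miR-99/miR-100/miR-125 count was 1 and with the median ratio 2, and the miR-15/miR-16 count was 4 and 5. Under total scaling miR-125b-5p, which overlapped with the other scalings, was at 4247, 4527 and 4445 against 5817, 4661 and 6013.

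The other families gave fewer members apart. The miR-17/miR-92 clusters and their paralogues had 1 of 19 wholly below and a median of -0.12, the Hox-linked miR-10/miR-196 list 2 of 9 below (miR-10a-3p and miR-196b-5p) with -0.29, and the miR-148/miR-152 list 2 of 6 above (both arms of miR-148b) with -0.40. Of 8 miR-181 arms 1 lay wholly below, with a median of 0.21, and 1 of 4 of the miR-192/miR-194/miR-215 list did, with -0.23. In the list of miR-21, miR-155, miR-146 and miR-31, 1 of 8 lay wholly above (miR-155-5p) and the median was -0.096. Under total scaling no tested arm of the miR-34/miR-449, miR-378, miR-708, miR-338/miR-383, miR-210, miR-193/miR-365 or miR-135 lists showed no overlap, and their medians were 0.36, 0.39, 1.27, -0.52, 0.10, 0.022 and 2.36. With TMM and with median-ratio scaling 2 arms of miR-34 (miR-34b-5p and miR-34c-5p) lay wholly above and miR-338-3p wholly below, and the miR-193/miR-365 median turned to -0.017 and -0.034. With both of these scalings the single members of the miR-17/miR-92 and miR-181 lists overlapped, 1 member each of the miR-10/miR-196 and miR-148/miR-152 lists remained apart, 2 members of the miR-192/miR-194/miR-215 list lay wholly below, and miR-31-5p lay wholly below as well.

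**Figure D4:**
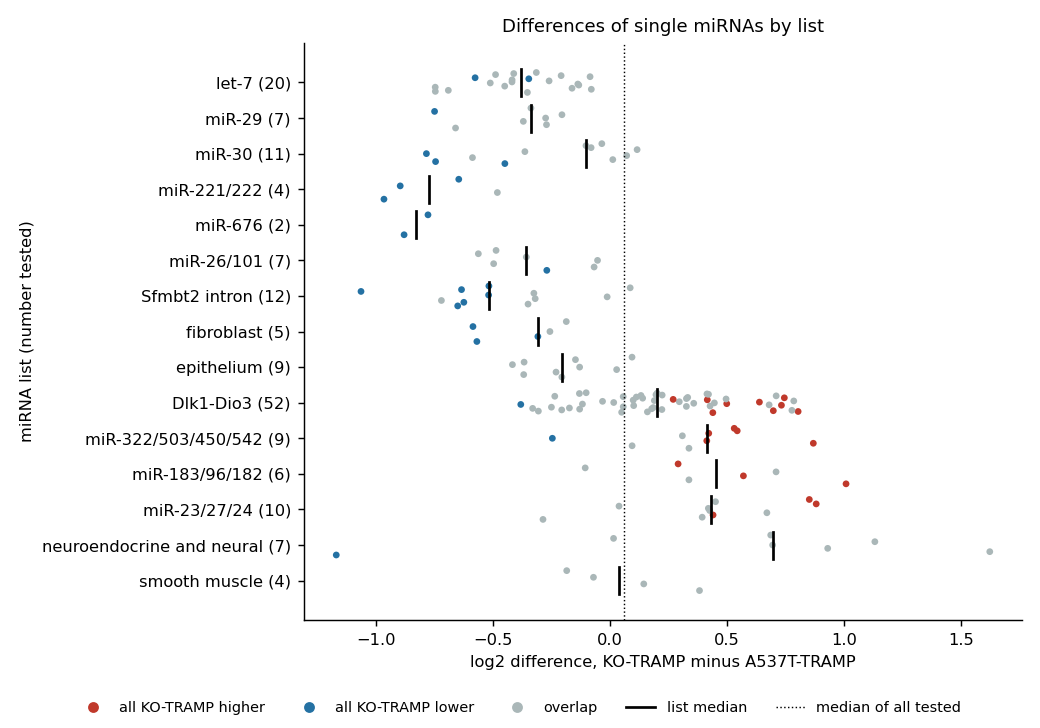
Log2 difference, KO-TRAMP minus A537T-TRAMP, of every tested miRNA in 15 lists (number tested in brackets), with the list median as a bar and the median of all tested miRNAs, 0.06, dotted; red and blue mark miRNAs without overlap. All let-7, miR-29, miR-26/miR-101, miR-221/miR-222, miR-676 and fibroblast members lie left of 0, and Dlk1-Dio3, miR-322/miR-503/miR-450/miR-542, miR-183/miR-96/miR-182 and miR-23/miR-27/miR-24 lie mostly to the right.

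Markers of the cells that a piece of prostate can hold were set beside these results. The smooth muscle list (both arms of miR-143 and miR-145a) summed to 55924, 339334 and 241874 CPM in KO-TRAMP libraries 16, 17 and 18 and 188112, 85406 and 134398 in A537T-TRAMP libraries 13, 14 and 15, so that library 16 was the lowest and libraries 17 and 18 the highest, with 0 of 4 without overlap. The neuroendocrine and neural list summed to 5652, 19197 and 15232 against 5829, 7431 and 5476, mostly miR-375-3p and miR-7a-5p, and 0 of its 7 members lay wholly above under total scaling, but 1, miR-7a-5p, did with TMM and with the median ratio. Its neuronal member miR-124-3p lay wholly below, at 0.355, 0.487 and 0.512 against 1.88, 5.72 and 0.797. The fibroblast list, miR-199 and miR-214, summed to 8965, 7476 and 8140.1 against 9755, 11258 and 10706, with 3 of 5 wholly below (2 with TMM) and all 5 negative. The leukocyte list summed to 1726, 743 and 1076 against 926, 1419.8 and 947, highest in library 16, and 1 of 6 (miR-155-5p, at 118, 124 and 124 against 54.2, 113 and 58.8) lay wholly above. Skeletal muscle markers summed to 1874, 9373 and 6146 against 4629, 2441 and 3037, with miR-1a-3p at 1649, 8399 and 5318 in KO-TRAMP and the skeletal miR-206-3p at 24.4, 20.3 and 22.09. In A537T-TRAMP miR-1a-3p was at 4119, 2108 and 2782 and miR-206-3p at 9, 32.8 and 5.74. miR-1a-3p, miR-133a-5p and miR-499-5p were thus lowest in library 16 and highest in library 17, whereas miR-206-3p was not. miR-133a-3p was at 181, 302 and 375 in KO-TRAMP against 457, 274 and 227. miR-133b-3p was at 15.3, 21.6 and 24.3 against 36.1, 21.6 and 18. For miR-133a-3p and miR-133b-3p, libraries 17 and 18 lay inside the A537T-TRAMP range and library 16 below it. Basal epithelial markers (miR-205 and miR-203) summed to 1893, 4231 and 3353 against 3117, 2434 and 2254, red cell markers to 169, 428 and 382.8 against 570.1, 271 and 426 and endothelial miR-126a to 8104, 9588 and 9969 against 8464, 9132 and 8586, and under all 3 scalings none of these lists, nor the 9 miR-200 family arms, had a member without overlap. The liver list had 1 member above the filter, miR-122-5p, and its other arm had no read. The median differences of the lists were -0.21 for epithelium, 0.37 for basal epithelium, -0.31 for fibroblast, 0.26 for leukocyte, 0.69 for neuroendocrine and neural, 0.52 for skeletal muscle and -0.011 for endothelium. Those of smooth muscle, 0.036, and red cell, 0.052, turned negative with TMM, at -0.0014 and -0.0043, and with the median ratio, at -0.025 and -0.027. The part of cell composition in the differences above was not tested.

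The WT-TRAMP libraries are given as levels beside both lines, with no test. Of the 50 miRNAs wholly higher in KO-TRAMP than in A537T-TRAMP, WT-TRAMP lay wholly below KO-TRAMP for 27 and overlapped it for 23, and overlapped A537T-TRAMP for 33. Of the 45 wholly higher in A537T-TRAMP, WT-TRAMP lay wholly below A537T-TRAMP for 20, wholly above KO-TRAMP for 16 and overlapped KO-TRAMP for 27. Over all 516 miRNAs WT-TRAMP lay wholly below KO-TRAMP for 95, wholly above it for 39 and wholly below A537T-TRAMP for 81. It overlapped KO-TRAMP for 382 and A537T-TRAMP for 411. The 50 and the 45 were picked because the 2 lines lay apart, which itself favours WT-TRAMP lying apart from a line. miR-455-5p in WT-TRAMP libraries 10, 11 and 12 was at 88, 100.9 and 99.8, below every KO-TRAMP library and overlapping A537T-TRAMP. miR-676-3p was at 175, 196.2 and 193, inside the A537T-TRAMP range, and miR-221-3p at 883, 749 and 815, below every A537T-TRAMP library and on both sides of KO-TRAMP library 16. miR-199a-5p at 1783, 1763 and 1737 was below every A537T-TRAMP library and inside the KO-TRAMP range. miR-128-3p at 944, 442 and 747 exceeded every A537T-TRAMP library and overlapped KO-TRAMP.

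Whether the 2 lines differed in the same way elsewhere was asked with the KO and A537T libraries without TRAMP at 30 weeks and with TRAMP at 10 weeks, 3 per group. In limma no miRNA passed an adjusted p of 0.05 for the difference between differences in either case. The DESeq2 Wald test called 8 against the background without TRAMP and 19 against TRAMP at 10 weeks. Both comparisons use the same 6 TRAMP libraries at 30 weeks. Against the background without TRAMP, limma gave 79 of 513 miRNAs at an unadjusted p under 0.05, of which 74 (14.4%) had a more positive KO minus A537T difference with TRAMP. edgeR called 0 at an adjusted p of 0.05 (84 unadjusted). This split depended on scaling. The median of all differences was 0.22 with total scaling, 0.05 with TMM and -0.03 with the median ratio, and the positive share went from 93.7% to 70.8% and 56.7%. Against TRAMP at 10 weeks, 47 of 512 had an unadjusted p under 0.05, of which 32 (6.25%) were positive, and edgeR again called 0 (68 unadjusted).

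The Dlk1-Dio3 miRNAs, from an imprinted region of chromosome 12 and expressed from the maternal allele, were all ordered one way in the background without TRAMP. They come from neighbouring hairpins, often as both arms of the same hairpin, so their counts are not counts of independent observations. With TRAMP at 30 weeks 9 of the 52 tested lay wholly above and 1 wholly below A537T-TRAMP, and 40 had positive differences, with a median of 0.20. Over all 516 miRNAs 50 lay wholly above (9.69%), 45 wholly below (8.72%) and 285 had positive differences, with a median of 0.06. With TMM or median-ratio scaling 7 of the 52 lay wholly above and 2 wholly below. Over all 516 these counts were 56 and 48 with TMM and 53 and 55 with the median ratio. The members wholly above under total scaling included miR-381-3p (71.2, 115 and 94.7 against 61.3, 68.5 and 48.2), miR-134-5p (23.4, 19.5 and 24.2 against 12.3, 18 and 8.36) and miR-411-5p (136, 135 and 157 against 127, 113 and 114). The list summed to 1614, 1860.3 and 1909 CPM in KO-TRAMP libraries 16, 17 and 18 and 1508, 1870.4 and 1184 in A537T-TRAMP libraries 13, 14 and 15, with overlap. Without TRAMP the order of the lines was the opposite. All 52 had negative KO minus A537T differences there, with a median of -0.78, against 369 of all 516 miRNAs and a median of -0.14, on total scaling, and the summed levels, from lowest to highest library, were 857, 867 and 1099 in KO and 1423, 1599 and 1739.5 in A537T. At 10 weeks with TRAMP 41 of 52 were negative, with a median of -0.24 and overlapping sums, 1036, 1485 and 2617 in KO-TRAMP and 1594, 1687 and 2289.6 in A537T-TRAMP. In WT without TRAMP the sums were 962, 3142 and 3899, a spread wider than either line.

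For 30 of the 52, the difference between the settings with and without TRAMP had an unadjusted p under 0.05, all 30 of them positive, against 79 of 513 over all miRNAs. With TMM scaling the number was 25 and with the median ratio 19, again all positive. Over all 513 miRNAs it was 65 with TMM, 46 of them positive, and 67 with the median ratio, 38 of them positive. The median over the list was 0.97, 0.83 and 0.76 under the 3 scalings. Single members were given by miR-434-5p, with a KO minus A537T difference of -0.50 ± 0.27 without TRAMP and 0.74 ± 0.22 (SE) with it, and by miR-409-3p, with -0.96 ± 0.27 and 0.78 ± 0.41 (SE). These lie near the top of the list with TRAMP at 30 weeks, where the highest difference was 0.80 and the median 0.20. They are not typical members, and miR-434-5p was named for its small p in that comparison. The smallest p belonged to miR-329-5p, another member of the region, at 11, 13.3 and 11.6 CPM in KO-TRAMP libraries 16, 17 and 18 and 12.1, 12.5 and 7.33 in A537T-TRAMP libraries 13, 14 and 15, against 5, 5.9 and 7.16 in KO and 14.2, 14.1 and 15.1 in A537T without TRAMP. Its difference of differences was 1.34 ± 0.34 (SE; limma adjusted p = 0.309). let-7 gave the contrast, with medians of 0.061, -0.088 and -0.38 for TRAMP at 10 weeks, no TRAMP and TRAMP at 30 weeks.

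**Figure D5:**
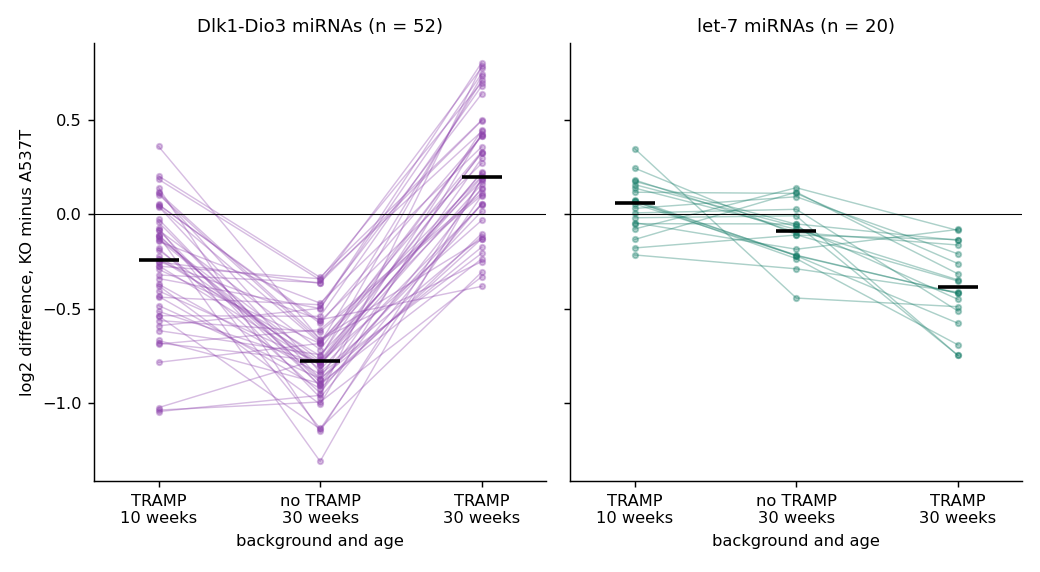
KO minus A537T log2 difference of each Dlk1-Dio3 (52) and let-7 (20) miRNA in 3 settings, with lines joining the same miRNA and black bars at the medians. Dlk1-Dio3 miRNAs lie below 0 without TRAMP in all 52 cases and above 0 in 40 with TRAMP at 30 weeks, while the let-7 medians run from 0.06 to -0.38.

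The age comparison was led by miR-7688-5p, a low-level miRNA at 1.95, 3.16 and 3.46 in KO-TRAMP and 0.797, 1.1 and 0.876 in A537T-TRAMP at 30 weeks. At 10 weeks its levels were 1.15, 0.571 and 1.09 in KO-TRAMP libraries 7, 8 and 9 and 1.73, 1.58 and 2 in A537T-TRAMP libraries 4, 5 and 6. The order of the lines was thus opposite at the 2 ages without overlap at either, with a difference of differences of 1.51 ± 0.33 (SE; limma adjusted p = 0.411). Among the miRNAs described above, miR-221-3p had almost equal levels in the lines at 10 weeks, 693, 725 and 958 in KO-TRAMP from lowest to highest library and 753, 777 and 966 in A537T-TRAMP, with a difference of -0.077 ± 0.23. miR-30a-5p at 10 weeks differed by 0.01 ± 0.19. Both were named for a small p in the libraries of 30 weeks, which itself favours a smaller difference at another age. Their differences between ages had a limma adjusted p of 0.452. miR-499-5p stayed at or below 3.64 CPM in every KO and A537T library of the other settings, and miR-298-5p at or below 4, so that their high levels were seen in KO-TRAMP libraries 17 and 18 among the libraries compared here. Of the 50 miRNAs wholly higher in KO-TRAMP at 30 weeks, 15 had a positive difference without TRAMP and 21 at 10 weeks, against 147 and 246 of all 516. Of the 45 wholly lower, 41 were negative without TRAMP and 23 at 10 weeks, against 369 and 270 of 516.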

How the data were processed

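Small-RNA reads came from ventral and lateral prostate lobes, with 3 libraries per group, per the labels. According to the methods, the authors merged reads with BBMerge, quantified miRNAs with mirDeep2 on GRCm38 with miRBase mature and precursor sequences, summed duplicate entries, merged identical sequences, and tested differences with DESeq2. The deposited signal (normalised counts) was used from 6 tables. Its values are whole reads divided by 1 factor per column, which was inferred from the values: dividing each column by its smallest step gave whole reads for 100% of values (tolerance 0.001 read); these reads were scaled to CPM (each column divided by its sum), which joins the tables. Columns carry library numbers but no group: columns shared by 2 tables were read as the control and the rest as the line the table is named for, with "Mut" read as A537T. The columns are not tied to single sample labels. The methods describe the replicates as biological.

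All miRNAs with a mean of at least 1 CPM over the 6 libraries were tested with limma 3.58.1 (trend, Benjamini-Hochberg, threshold 0.05) on log2(CPM + 1); this scale understates differences of low miRNAs. The 2 differences of differences used 12 libraries each. Alternatives were edgeR 4.0.16 and DESeq2 1.42.0 on the recovered reads, other pseudocounts (0.1 and 10), filters, scalings and leaving out each library. A count test was planned only as an alternative because the deposited unit is not counts. The scripts were tested on simulated data. Up to 12 miRNAs per direction were named: those past the threshold by size, then, where fewer passed, by unadjusted p, with a mean of at least 10 CPM and no overlap; also the 10 most abundant, marker list members, the 6 the study named, and other arms. The members and lists were chosen with earlier results of these data known. Sequences and loci are from RefSeq GRCm38.p6 and hosts from GENCODE vM21. The authors' own comparison tables, which hold shrunken fold changes, their errors and s-values, were not used.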

Additional observations from a re-analysis of the deposited data

How the results depend on the processing

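No paired analysis was possible because the columns carry library numbers and no replicate numbers, so no column could be tied to a numbered mouse. The comparison of KO-TRAMP with A537T-TRAMP called 0 miRNAs under other pseudocounts, filters, scalings, without a variance trend, with edgeR and with WT-TRAMP in the fit, and 41 with DESeq2; leaving out 1 library gave 0 to 157, the 157 without KO-TRAMP library 16. The comparison of differences with and without TRAMP gave 8 with DESeq2 and 0 to 88 with 1 library left out, and that between ages 19 and 0 to 61, the highest again without library 16. The 95 miRNAs without overlap became 160 with no filter on low values, of 1320 miRNAs with a read, and 60 of 308 with a mean of at least 10 CPM, both by the number of miRNAs tested; with 1 library left out the number ran from 104 to 318, reaching 318 without library 16 and 169 without library 14, where fewer libraries have to stay apart. A count of 0 allows up to 3 reads, as for miR-208b-3p in KO-TRAMP.

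Of 96 named miRNAs, DESeq2 took 13 and leaving out library 16 took 54 past the threshold, against 41 and 157 of all 516 tested. Some of the 96 were named for a small p without overlap, or for a wide KO-TRAMP range with library 16 at its end. That choice favours such counts, so they are no independent support. Directions turned for some of the named miRNAs, not all of them with small differences. miR-143-3p, for one, was at 0.38 ± 0.70 (SE) in the main comparison. miR-27a-3p was at -0.024 with the median ratio, -0.023 with edgeR and -0.031 with DESeq2, and miR-200a-5p at -0.00973 with TMM, -0.034 with the median ratio, -0.048 with edgeR and -0.048 with DESeq2. With 1 library left out, log2 differences spanned 0 for miR-143-3p (-0.14 to 1.17), miR-21a-5p (-0.45 to 0.24), miR-434-3p (-0.069 to 0.29), miR-128-1-5p (-0.072 to 0.22), miR-455-3p (-0.16 to 0.060), miR-27a-3p (-0.041 to 0.11), miR-30c-1-3p (-0.072 to 0.15), miR-195a-3p (-0.17 to 0.068), miR-143-5p (-0.26 to 0.87), miR-21a-3p (-0.44 to 0.26), miR-26a-2-3p (-0.27 to 0.23), miR-200a-5p (-0.20 to 0.24), let-7c-1-3p (-0.20 to 0.084), miR-338-5p (-0.99 to 0.042) and miR-223-3p (-0.31 to 0.55); the cause was not tested.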
